A study of Mus musculus with 2 samples.

Results

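The genes that respond to type I interferon were followed in interscapular brown adipose tissue (iBAT) of wild-type (WT) and Ucp1-knockout (Ucp1-KO) mice. The 51 genes were taken by symbol from a list of receptors, signalling factors and effector families, and all 51 were among the 27179 genes counted in both libraries. The animals were untreated C57BL/6N mice of 20 days, described as male, of genotype wild-type or Ucp1 KO (Δ/Δ), and no other allele or agent is given for either. For each genotype the depots of 3 animals were pooled into 1 library, and the libraries held 52950913 (wild-type) and 53216727 (Ucp1-KO) counts. With 1 library per genotype no spread between animals can be estimated and no p-value is given, so each difference below is one between these 2 libraries, set against counting error only.

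Type I interferons are secreted proteins that bind a receptor of the subunits IFNAR1 and IFNAR2 on the cell surface. The receptor-bound kinases JAK1 and TYK2 then phosphorylate STAT proteins, among them STAT2, which join IRF9 and activate interferon-stimulated genes through a promoter element made of repeated GAAA units. The products bind or cut foreign RNA, block virus entry and release, modify proteins or raise the sensitivity of the cell to further interferon. The study was concerned with UCP1, the heat-producing mitochondrial carrier of brown fat, and interferon-stimulated genes in adipocytes, and this comparison addresses their expression in brown fat of Ucp1-KO mice.

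Promoter sequence was examined first because the members were listed for their response and not for their sequence. In the RefSeq promoter set, a window from 250 bases before to 50 bases after each gene start was held for 39 of the 51 genes. The motif GAAANNGAAA, the core of the interferon-stimulated response element (ISRE), was searched on both strands, with overlapping matches counted, and was present in 19 of the 39 windows (48.7%) against 3.99% of 27025 genes. The motif TTCNNNGAA, the core of the element bound by STAT dimers, was found in 13 (33.3%) against 9.55% of genes. The 160 bases before the RefSeq start of 4 members are given because they carry the same element while their transcripts differed, Ifit1 being above the wild-type level, Ifit3 and Bst2 below it and Isg15 not different beyond counting error. Capitals mark the ISRE core on either strand. Ifit1 lies at chr19:34618129-34618288 on the plus strand of GRCm39, Ifit3 at chr19:34560769-34560928 on the plus strand, Isg15 at chr4:156285276-156285435 on the minus strand and Bst2 at chr8:71990117-71990276 on the minus strand, each placed by exact match of the RefSeq sequence of build GRCm38.p6. The GENCODE starts lie further upstream for 3 of them, so that the last 18 bases for Ifit1, 30 for Ifit3 and 28 for Isg15 fall inside the GENCODE gene.
Ifit1: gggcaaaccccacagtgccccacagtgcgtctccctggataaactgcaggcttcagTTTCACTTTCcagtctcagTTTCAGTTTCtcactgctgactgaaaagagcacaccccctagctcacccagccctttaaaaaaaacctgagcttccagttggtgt
Ifit3: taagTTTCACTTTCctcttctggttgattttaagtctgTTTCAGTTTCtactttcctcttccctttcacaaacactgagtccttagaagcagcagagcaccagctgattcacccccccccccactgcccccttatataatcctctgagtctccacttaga
Isg15: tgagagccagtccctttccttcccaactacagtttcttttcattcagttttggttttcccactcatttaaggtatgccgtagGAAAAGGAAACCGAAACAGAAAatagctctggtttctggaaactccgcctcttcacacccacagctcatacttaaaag
Bst2: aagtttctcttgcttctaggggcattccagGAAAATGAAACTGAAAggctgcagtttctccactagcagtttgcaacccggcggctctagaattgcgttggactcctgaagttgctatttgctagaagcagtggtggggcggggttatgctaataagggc

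The printed stretches of Ifit1 and Ifit3 each hold 2 separate copies, that of Isg15 holds 3 overlapping copies and that of Bst2 holds 2 overlapping copies. The 19 members with an ISRE core had a median of -0.09 in the log2 ratio described in the next paragraph, and -0.17 was the median of the 20 with a window but no match. Of the 13 members with the STAT motif the median was -0.08, and of the 26 without it -0.22. The 12 members without a window stand outside both comparisons. Their median was -0.30, and they include the lowest ratios of all members, Ifi27l2a at -1.60 and Oas1b at -1.44. A match describes letters only and is not a measurement of binding.

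Across the whole group, most members were modestly lower in the Ucp1-KO library. The log2 ratio of normalised counts, Ucp1-KO over wild-type, was below 0 for 39 of 51 members (76.5%), where 50.1% of 15212 examined genes were. All 51 members passed the minimum mean normalised count of 10 that defined an examined gene, although Oas1g did so narrowly. The median log2 ratio of the members was -0.19, beside -0.0016 for all examined genes. The counting interval, the 95% range that read sampling alone allows, lay wholly below 0 for 23 members (45.1%) against 30.5% of all examined genes. It lay wholly above 0 for only 2 members (3.92%), Ifit1 and Oasl1, against 31.5%.

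Large differences were rare. A log2 ratio of -1 or lower, a 2-fold difference, was found for 3 members (5.88%), Ifi27l2a, Oas1b and Ifi44, and for 9.55% of all examined genes. A ratio of 1 or higher was found for 2 members (3.92%), Oas1g and Oasl1, and for 7.42% of all examined genes. Neither share was above that of the background, and the members differed from it in direction at small size, not in the number of large differences. The list had been drawn up with earlier results of these libraries known and is not independent evidence of its direction.

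**Figure D1:**
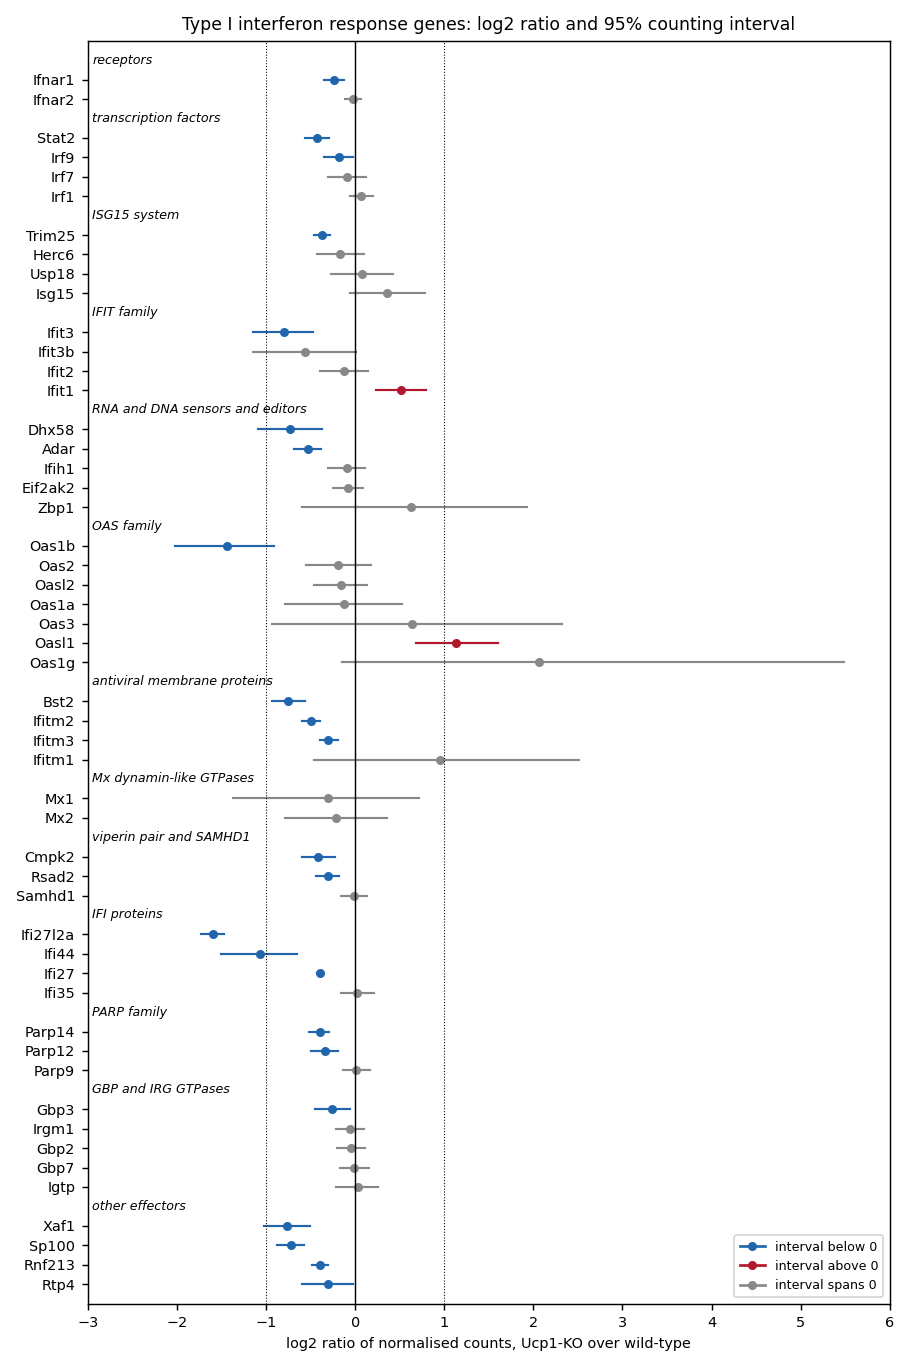
Log2 ratio of normalised counts, Ucp1-KO over wild-type, for the 51 members by role (points) with the 95% counting interval (lines); dotted lines mark a 2-fold difference in either direction. Of the intervals, 23 lie below 0 (blue), 2 above 0 (red) and 26 span 0 (grey), the widest being that of Oas1g.

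Both pools differed in more than genotype, and these facts bear on every value here. Ucp1, which checks the labels, had 366473 counts in WT and 37853 in Ucp1-KO, 12.7% of the wild-type level. A signal for Ucp1 therefore remained, and a count over the whole gene does not show whether it lies outside the deleted part. The Y-linked Ddx3y, Uty, Kdm5d and Eif2s3y had 0 counts in the wild-type library and 491 to 3446 in the Ucp1-KO library, while Xist, which is transcribed from the inactive X of females, had 32380 and 16478 counts. Abundant Xist in both libraries goes against the stated sex. By these transcripts no male RNA was detected in the wild-type library, while the Ucp1-KO library held RNA of both sexes. The sex of the pooled animals and genotype therefore cannot be told apart for any gene here. The 12 skeletal muscle markers made up 0.511% of wild-type and 0.0524% of Ucp1-KO counts. Of the 11 brown adipocyte markers 8 had an interval above 0 and 3, Ucp1 among them, below 0, beside 31.5% and 30.5% of all examined genes. Their median ratio was 0.25, and Adipoq was at 0.84 and Dio2 at 2.28. Scaling by total counts in place of median-of-ratios size factors moved the median of all examined genes to -0.31 and that of the members to -0.49. The members lay 0.19 below all genes under either scaling, and ratios near 0 therefore hold only relative to other genes.

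**Figure D2:**
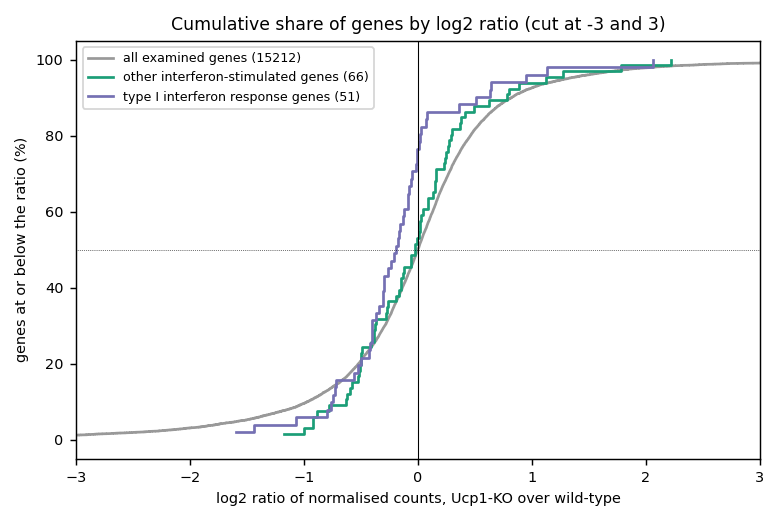
Cumulative share of genes (%, vertical axis) at or below each log2 ratio of Ucp1-KO over wild-type (horizontal axis, shown from -3 to 3) for the 51 members, 66 other interferon-stimulated genes and 15212 examined genes. The member curve has reached 76.5% at a ratio of 0, while that of all genes has reached 50.1%, and the curves meet again at large ratios.

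The receptor subunits came first in the pathway. Ifnar1 (chromosome 16, 91281942 to 91305789), which binds TYK2, had 3277 counts in WT and 2254 in Ucp1-KO. The ratio of -0.24 (-0.35 to -0.13) placed it at 84.7% of the wild-type level. Ifnar2 (chromosome 16, 91169618 to 91202723), which binds JAK1, had 4656 and 3729 counts and a ratio of -0.02 (-0.11 to 0.07). The difference between the subunits does not depend on the scaling, since the count of Ifnar1 over that of Ifnar2 was 0.704 in WT and 0.604 in Ucp1-KO, a log2 difference of -0.22 (-0.36 to -0.08). Ifnar2 shares 20% of its annotated exon bases with Gm21970 on the same strand, and reads in that stretch cannot be assigned with certainty.

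The transcription factors were within a narrow range of ratios. Stat2, the subunit that brings the activating domain to the interferon-stimulated complex, had 2469 counts in WT and 1492 in Ucp1-KO. This gave a ratio of -0.43 (-0.56 to -0.29), the lowest of the 4. Irf9, its DNA-binding partner, had 1490 and 1067 counts and a ratio of -0.18 (-0.35 to -0.02), so both subunits of the complex were below wild-type by more than counting error. Irf7, which amplifies the production of interferon, had 862 and 658 counts and a ratio of -0.09 (-0.30 to 0.12). Irf1, which also answers to interferon gamma, had 2091 and 1787 counts and a ratio of 0.07 (-0.06 to 0.20). For Irf7 and Irf1 no difference beyond counting error was seen, and total counts placed them at -0.40 and -0.23, near the shift of all genes.

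The other genes of the pathway were read from a list of signal transducers that are not members. Of the 21 interferon genes listed, including Ifnb1, interferon gamma and the alpha and lambda types, 19 were listed at 0 in both libraries, and Ifna6 and Ifnk had 1 count each in wild-type. A count of 0 allows up to 6 counts in a library, so interferon transcripts were not detectable at this depth. Of the 16 signal transducers, 3 (18.8%) had an interval below 0 and 7 (43.8%) above 0, beside 30.5% and 31.5% of all examined genes. Their median ratio was 0.13. Of the kinases, Jak1 was at 0.07 (0.00 to 0.14) and Tyk2 at -0.15 (-0.31 to 0.01), while Jak2, which serves the interferon gamma receptor, was at 0.55 (0.44 to 0.66). Irf3, which is activated by nucleic acid sensors, was at -0.08 (-0.20 to 0.04). The phosphatase gene Ptpn2, which restrains JAK-STAT signalling, had 1632 and 2388 counts and a ratio of 0.85 (0.72 to 0.98). The feedback inhibitors differed from each other, Socs1 having 8 and 26 counts and a ratio of 1.93 (0.31 to 4.07) and Socs3 having 125 and 66 counts and a ratio of -0.62 (-1.28 to 0.01).

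The effectors differed widely in level. Normalised counts were divided by the length of the GENCODE canonical transcript in kilobases to compare genes. By that measure the members ranged from 1.82 to 18300 in the wild-type library, with a median of 289, and from 4.23 to 13900 in Ucp1-KO, with a median of 245. Ifi27 was the highest in both libraries, and Ifi27l2a, Ifitm2, Ifitm3, Bst2 and Ifnar2 followed it in wild-type. Oas1g and Oas3 were the lowest in both. Ifi27l2a passed from rank 2 of 51 to rank 3 and Oas1b from 37 to 43, while Oasl1 went from 43 to 35.

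**Figure D3:**
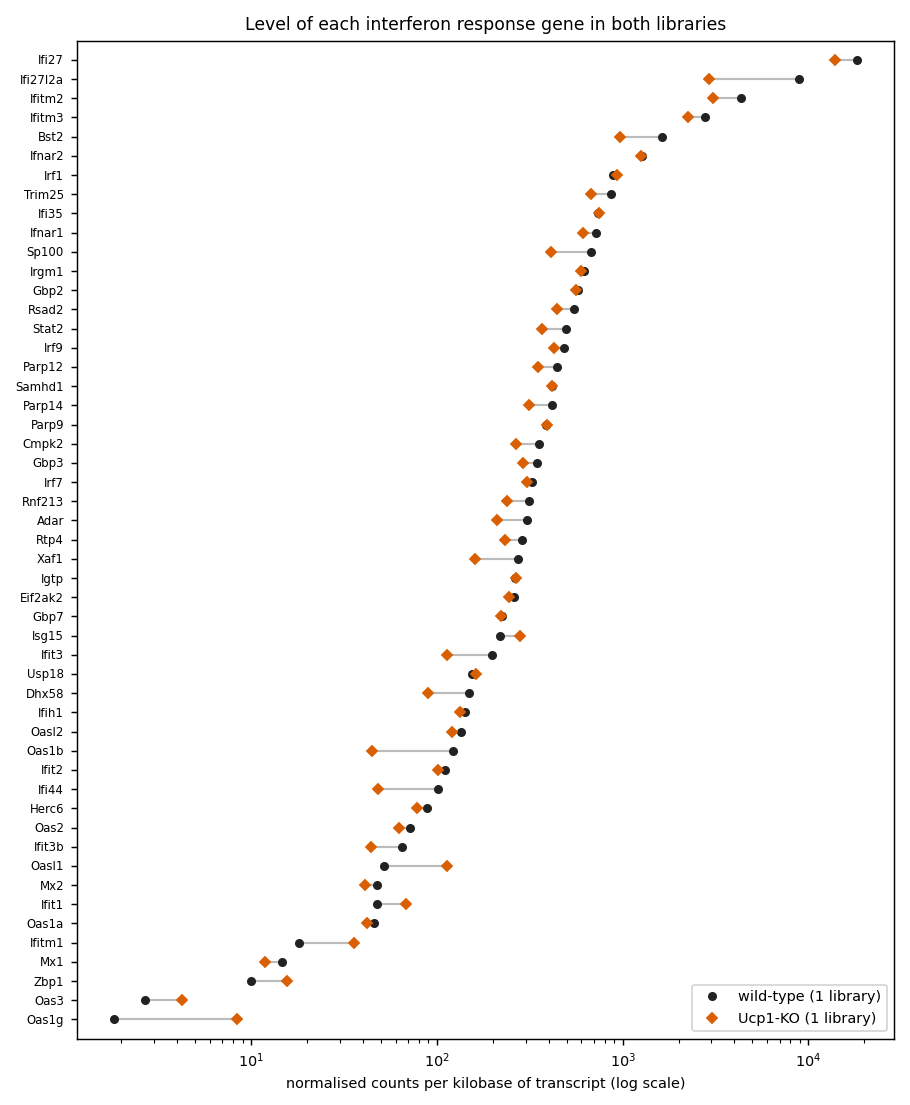
Normalised counts per kilobase of transcript (log axis) for the 51 members in the wild-type library (circles) and the Ucp1-KO library (diamonds), ordered by the wild-type level. Diamonds lie left of the circles for most genes, with the longest of these distances at Ifi27l2a and Oas1b. They lie to the right for 12 genes, namely Oasl1, Ifit1, Isg15, a few genes of low level and, by small distances, Irf1, Ifi35, Parp9, Igtp and Usp18.

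The direction was clearest among abundant members. Among the 24 members whose normalised counts averaged 1000 or more, 21 (87.5%) had a ratio below 0, where 44.0% of 6395 examined genes of that level did. Their median was -0.30, beside 0.06 for all genes of that level, and 15 had an interval below 0 (62.5% against 32.9%) and 0 an interval above it, where 44.0% of all genes of that level did. Of the 21 members between 100 and 1000, 16 were below 0 (76.2% against 54.9%), with a median of -0.19, and 8 had an interval below 0, a share near that of all genes of that level (38.1% against 33.6%). The 6 members under 100, Oas1a, Oas1g, Oas3, Mx1, Zbp1 and Ifitm1, all had intervals that spanned 0, so their ratios were not resolved at this depth.

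The small hydrophobic IFI27 proteins, which sit in intracellular membranes, gave the largest resolved difference. Ifi27l2a (chromosome 12, 103399975 to 103409950, minus strand) had 4651 counts in WT and 1247 in Ucp1-KO. The ratio was -1.60 (-1.73 to -1.47), 33.0% of the wild-type level, and it was the only member whose whole interval lay past 2-fold. Ifi27 (chromosome 12, 103392254 to 103407799, plus strand), the most abundant member, had 48822 and 30080 counts and a ratio of -0.40 (-0.43 to -0.37). The count of Ifi27l2a was 0.0953 of that of Ifi27 in WT and 0.0415 in Ucp1-KO, so the neighbouring genes differed by unequal amounts. They overlap on opposite strands by 163 exon bases, which is 15.0% of the exon bases of Ifi27l2a. Ifi27l2a also shares 86.9% of its coding bases with Ifi27l2b, and how the counting treated such reads is not stated.

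The other IFI proteins covered the range. Ifi44 (chromosome 3, 151436559 to 151455625), an antiviral protein with a GTP-binding fold, had 329 and 127 counts and a ratio of -1.07 (-1.51 to -0.65). Ifi35, a leucine zipper protein, had 1113 and 920 counts and a ratio of 0.02 (-0.16 to 0.21). Ifi44 was thus lower beyond counting error although its interval crosses the 2-fold line, and Ifi35 did not differ beyond counting error.

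The oligoadenylate synthetases, which on binding double-stranded RNA make oligoadenylates that activate RNase L, went in both directions. Oas1b (chromosome 5, 120950700 to 120962228), the flavivirus resistance gene whose product is truncated in common laboratory strains, had 248 and 74 counts and a ratio of -1.44 (-2.02 to -0.91). Its neighbour Oas1a had 97 and 72 counts and a ratio of -0.13 (-0.79 to 0.52). The ratio of their counts was 2.56 in WT and 1.03 in Ucp1-KO, a log2 difference of -1.31 (-2.20 to -0.45).

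Oasl1 (chromosome 5, 115061294 to 115075974), a relative without synthetase activity that has been described as a brake on translation of Irf7 mRNA, had 127 counts in WT and 227 in Ucp1-KO. Its ratio of 1.13 (0.68 to 1.60) was the highest among members whose interval left 0. Its neighbour Oasl2 had 470 and 341 counts and a ratio of -0.16 (-0.46 to 0.13). The count of Oasl1 over that of Oasl2 was 0.270 in WT and 0.666 in Ucp1-KO, a log2 difference of 1.30 (0.75 to 1.85). Oas1g had 4 and 15 counts and a ratio of 2.06 (-0.15 to 5.49), which spans 0. Its coding sequence is 96.5% identical to that of Oas1a, so its reads cannot be separated with certainty. Oas2 and Oas3 were at -0.19 and 0.64, and their intervals spanned 0 as well.

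The IFIT proteins, which bind foreign RNA by its cap and end structure, lie in 1 cluster on chromosome 19 and also diverged. Ifit1 (34618271 to 34632174) had 391 counts in WT and 454 in Ucp1-KO, a ratio of 0.51 (0.23 to 0.80). Ifit3 (34560899 to 34566443) had 458 and 213 counts and a ratio of -0.80 (-1.15 to -0.47). Ifit1 was thus above and Ifit3 below the wild-type level, although both carry the element printed above. Within each library, free of any scaling, the count of Ifit1 over that of Ifit3 was 0.854 in WT and 2.13 in Ucp1-KO, a log2 difference of 1.32 (0.88 to 1.77).

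With total counts Ifit1 was at 0.21 and its interval spanned 0, so its position above wild-type holds relative to other genes. Ifit3b had 147 and 81 counts and a ratio of -0.56 (-1.15 to 0.01). Its coding sequence is 99.1% identical to that of Ifit3, and the split of reads between the pair is uncertain. Ifit2 had a ratio of -0.12 (-0.39 to 0.14) and lay between its neighbours.

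The ISG15 system attaches a ubiquitin-like protein to other proteins. Isg15 itself (chromosome 4, 156283883 to 156285303) had 190 and 198 counts and a ratio of 0.36 (-0.06 to 0.78). Trim25, a ligase that acts on the RNA sensor RIG-I, had 5397 and 3387 counts and a ratio of -0.37 (-0.46 to -0.28). Usp18, which removes ISG15 and blocks signalling at IFNAR2, was at 0.08 with 306 and 262 counts, and the ISG15 ligase Herc6 was at -0.17. The classical markers Isg15 and Usp18 did not differ beyond counting error, in contrast to Trim25.

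Among sensors and RNA-binding enzymes, Dhx58 (LGP2), which modulates the RNA sensor MDA5, had 398 and 195 counts and a ratio of -0.73 (-1.09 to -0.37). Ifih1, which encodes MDA5, had 934 and 711 counts and a ratio of -0.09 (-0.30 to 0.11). Adar, which edits adenosine in double-stranded RNA, had 1959 and 1100 counts and a ratio of -0.53 (-0.69 to -0.38), with 16.8% of its exon bases shared with Chrnb2 on the opposite strand. The kinase gene Eif2ak2 (PKR) was at -0.08 (-0.25 to 0.09). Zbp1, a sensor of Z-form nucleic acid, had 22 and 28 counts and a ratio of 0.63 (-0.60 to 1.93).

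Antiviral membrane proteins were lower where they were abundant. Bst2 (tetherin, chromosome 8, 71986895 to 71990114), which holds budding virus at the cell surface, had 1450 and 702 counts and a ratio of -0.75 (-0.93 to -0.56). Ifitm2 and Ifitm3, which block virus entry by fusion, were at -0.50 (-0.60 to -0.40) and -0.30 (-0.40 to -0.19). Ifitm1 had 15 and 24 counts and a ratio of 0.95 (-0.46 to 2.51), which does not resolve a direction. Ifitm2 shares 26.8% of its exon bases with Gm45717 on the same strand.

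The enzymes of nucleotide metabolism had similar ratios where they share a locus. Rsad2 (viperin, chromosome 12, 26492745 to 26506451), which makes a chain-terminating nucleotide, had 2303 and 1509 counts and a ratio of -0.31 (-0.44 to -0.18). Cmpk2 (26519203 to 26529836), the mitochondrial nucleotide kinase beside it, had 1260 and 767 counts and a ratio of -0.42 (-0.60 to -0.23). The ratio of their counts was 1.83 in WT and 1.97 in Ucp1-KO, a log2 difference of 0.11 (-0.13 to 0.33), so an unequal change of the pair was not detectable. Samhd1, which breaks down deoxynucleotides, had 1821 and 1466 counts and a ratio of -0.01 (-0.16 to 0.13).

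Parp14, an ADP-ribosyltransferase, had 3464 and 2126 counts and a ratio of -0.40 (-0.52 to -0.29), and Parp12 of the same family was at -0.34 (-0.50 to -0.19). Parp9, which acts with the ligase DTX3L, had 1533 and 1255 counts and a ratio of 0.01 (-0.14 to 0.17). The GTPases that attack vacuoles of intracellular microbes, many of which answer mainly to interferon gamma, were close to equal. Gbp3 had 1061 and 721 counts and a ratio of -0.26 (-0.45 to -0.06). Igtp, the highest of the 5, had 664 and 549 counts and a ratio of 0.03 (-0.21 to 0.26), and Gbp2, Gbp7 and Irgm1 lay between -0.06 and -0.01 with intervals that spanned 0. The dynamin-like Mx1 and Mx2, of which Mx1 is defective in common laboratory strains, were expressed at a low level. Mx1 had 44 counts in WT and 29 in Ucp1-KO, a ratio of -0.30 (-1.37 to 0.72), and Mx2 had 128 and 90, a ratio of -0.21 (-0.79 to 0.36), so neither was resolved.

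The 4 remaining effectors were all lower beyond counting error. Xaf1, a binding partner of the apoptosis inhibitor XIAP, had 805 and 386 counts and a ratio of -0.76 (-1.02 to -0.51). Sp100, a component of nuclear bodies, had 2074 and 1023 counts and a ratio of -0.72 (-0.88 to -0.57). Rnf213, a very large ubiquitin ligase, was at -0.40 (-0.48 to -0.31). Rtp4, with 511 and 335 counts, was at -0.31 (-0.60 to -0.02), at the edge of counting error.

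In all, 13 pairs of members from the same family, complex or step were compared within the libraries, of which 10 had a difference of log2 ratios beyond counting error. They were chosen after their values were seen, so this count describes those pairs only.

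Interferon-stimulated genes outside the list were compared as a further group. Of 75 genes listed, 74 were counted and 66 examined, and 35 of these had a ratio below 0. Their median ratio was -0.03, and 27 (40.9%) had an interval below 0 and 13 (19.7%) above it, beside the 30.5% and 31.5% of all examined genes. Where only genes averaging 50 or more normalised counts were kept, the median was -0.12, between -0.22 for the members and 0.0074 for all genes. Among those whose normalised counts averaged 50 or more, the lowest were Trim34a at -1.18 (-1.45 to -0.93), the RNA receptor Tlr3 at -0.92 (-1.20 to -0.65) and Phf11d at -0.92 (-1.20 to -0.65). The cell surface protein gene Ly6e, second lowest, had 10901 and 4423 counts, 49.9% of the wild-type level after normalisation. The highest were Epsti1 at 1.12 (0.48 to 1.79), the p200 gene Ifi211 at 0.80 (0.44 to 1.17), the GTPase gene Iigp1 at 0.78 (0.60 to 0.96) and Slfn2 at 0.62 (0.25 to 0.98). Iigp1 had 873 counts in WT and 1218 in Ucp1-KO.

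Markers of other cells differed beside the members. Of 12 endothelial markers 11 had an interval below 0, with a median ratio of -0.81 and a range of -1.39 (Emcn) to 0.50 (Cldn5), and together they made up 0.289% of wild-type and 0.146% of Ucp1-KO counts. All 9 fibroblast and preadipocyte markers had an interval below 0, with a median of -0.16 and a range of -0.49 to -0.07. At high counts a small difference passes this rule, as for Col3a1 with 49493 and 38387 counts and a ratio of -0.07 (-0.09 to -0.04). Over all examined genes 30.5% had an interval below 0 and 31.5% above it. The 12 macrophage markers had a median of 0.10 and ranged from -0.50 to 2.04, with 4 intervals above 0 and 1 below it. Before normalisation they made up 0.0131% and 0.0114% of the counts, while the ratio of their summed normalised counts was 0.10. Neutrophil markers summed to only 122 and 199 counts, and 2 of the 3 examined had an interval above 0. The defining plasmacytoid dendritic cell genes Siglech (11 and 4 counts) and Ccr9 (14 and 6) were near the limit of detection, and T and NK cell markers summed to 177 and 124 counts, so cells of these types gave little RNA in either library. In bulk tissue fewer cells of a type and less RNA per cell cannot be told apart. The part of these markers in the lower interferon response genes was not tested.

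**Figure D4:**
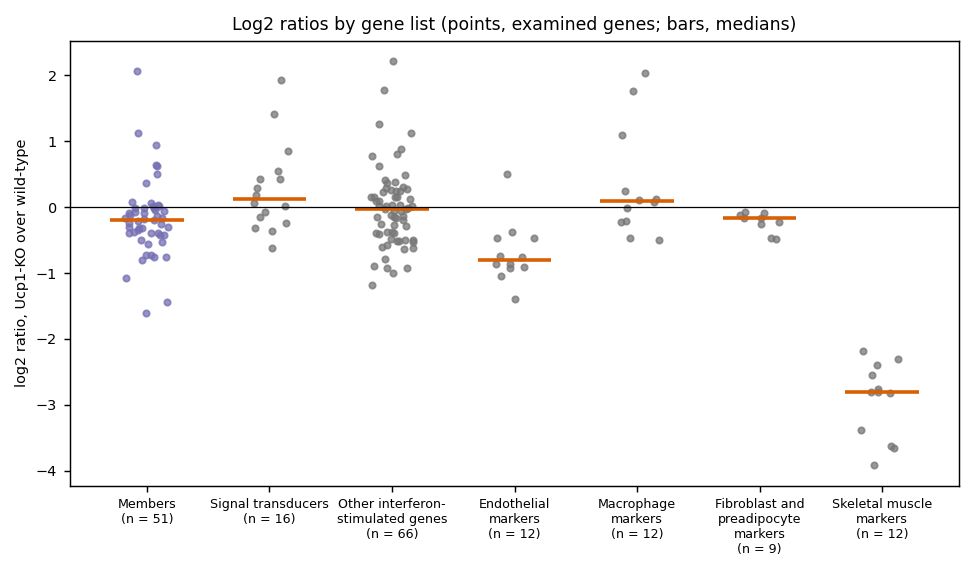
Log2 ratio of Ucp1-KO over wild-type (vertical axis) for the members, the other pathway lists and marker lists of 4 cell types, with 1 point per examined gene and a bar at the median. The member median of -0.19 lies near that of fibroblast and preadipocyte markers (-0.16), below that of the other interferon-stimulated genes (-0.03) and above those of endothelial (-0.81) and skeletal muscle markers (-2.80).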

How the data were processed

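The deposited values are whole-number counts per gene that the authors made with featureCounts, not normalised. The submitters' processing notes name Trim Galore, HISAT2 and build mm39. The annotation, the strand setting and the handling of multi-mapping reads are not given in the sources used here. The libraries were directional and poly-A enriched per the labels.

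Normalised counts were obtained with DESeq2 1.42.0 in R 4.3.3 from size factors of the median-of-ratios kind, 1.11 for wild-type and 0.901 for Ucp1-KO. The log2 ratio was log2((Ucp1-KO + 0.5)/(wild-type + 0.5)). A gene was examined where its normalised counts averaged 10 or more. Among genes with 1 to 10 counts 70.7% (wild-type) and 73.4% (Ucp1-KO) were even, as when both mates are counted, so 95% intervals (conditional Clopper-Pearson; for gene pairs, conditional odds ratio; scipy 1.17.1) were computed on counts divided by 2, and the limit of a 0 was set at 3 pairs. They cover counting error only. The ratio and its interval were tried on simulated counts that held read sampling error only. That trial cannot speak to variation between animals or libraries. Positions and lengths are those of GENCODE M39 on GRCm39, matched by symbol for all 51 members, and coding identities came from its longest coding sequences (Biopython 1.88).

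The members and lists were chosen with earlier results of these data known. Both counts and the interval are given for the receptors, the transcription factors, every member past 2-fold and the lowest and highest of each role group. Other members whose values are given in full, and the pairs, were chosen after their values were seen. Alternatives were TMM factors (edgeR 4.0.16), total counts, other minimum counts, a pseudocount of 5, intervals on deposited counts and removal of the trend on mean expression.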

Additional observations from a re-analysis of the deposited data

How the results depend on the processing

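No paired analysis was possible because only 1 library of each genotype was analysed, and none could be left out. Of 113 recomputed values for the whole group, the role groups and the other interferon-stimulated genes, 90 stayed within counting error or within 1.5 times the count, and 23 moved.

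Total counts moved the most, through the shift of all examined genes to -0.31. Under it the members' median was -0.49. Of the 51 members 8 were at least 2-fold lower and 1 higher, beside 14.9% and 5.03% of all examined genes. An interval below 0 was found for 40 members and above 0 for 1, beside 53.8% and 14.5% of all examined genes. The medians became -0.44 for receptors, -0.44 for transcription factors, -0.65 for the IFIT family, -0.40 for sensors and editors, -0.70 for membrane proteins, -0.62 for the viperin pair and SAMHD1, -1.04 for IFI proteins, -0.65 for the PARP family, -0.35 for GBP and IRG GTPases, -0.87 for other effectors and -0.34 for the other interferon-stimulated genes. A minimum mean of 50 left 46 members and removed Oas1g. It so left 1 member at least 2-fold higher, beside 4.8% of all examined genes. Medians with this minimum were -0.31 (sensors and editors), -0.50 (membrane proteins) and -0.12 (other interferon-stimulated genes), since weakly expressed genes were left out. Intervals on the counts as deposited gave 4 members above 0, beside 36.5% of all examined genes. A whole interval past 2-fold left 1 member lower and 0 higher, and no share of all examined genes is given for that rule. Leaving out the 9 members of near-identical coding sequence left 1 at least 2-fold higher, beside 7.42% of all examined genes. The last 2 settings were chosen after seeing the data. With the trend on mean expression removed the members' median was -0.11, and that of the ISG15 system changed sign, from -0.04 to 0.03. Leaving out members by protein identity was not run, as coding sequence was used in its place. Of 150 recomputed values for single members 129 stayed within their intervals. Depth limits the 6 members with a mean under 100.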

Other observations

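Genes that the list did not hold were also uneven within the GTPase families, and they were chosen here after their values were seen. Gbp4 had a log2 ratio of 0.27 (0.11 to 0.43) and Irgm2 of 0.25 (0.08 to 0.43), beside Gbp5 at -0.53 (-0.92 to -0.16) and Gbp9 at -0.27 (-0.45 to -0.09). Genes of antigen processing that answer to interferon lay close to 0, with Tap1 at 0.01 (-0.23 to 0.26), Psmb8 at 0.09 (-0.13 to 0.30), Psmb9 at -0.01 (-0.40 to 0.38) and B2m at 0.04 (-0.01 to 0.09). Pml, which builds the nuclear bodies that hold Sp100, was at -0.89 (-1.11 to -0.67), with 1144 counts in WT and 502 in Ucp1-KO. These values are relative to all examined genes, and total counts would lower each by about the shift given above.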
